A study of Mus musculus with 20 samples.

Results

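Of 20 mouse hippocampus RNA-seq libraries, 4 held transthyretin (Ttr) above 500 FPKM, and they are described here against the other 16. FPKM is the number of fragments of a gene relative to its transcript length and to the depth of the library, so it allows levels of different genes to be set side by side. The libraries fall into 4 groups of 5 by title: F-C57 and M-C57, whose genotype is WT, and F-KO and M-KO, called KO in the titles and Fmr1 knockdown in the genotype field, where F and M stand for female and male. Every title also carries the letters Con, which the labels do not explain. The labels name hippocampus as the tissue of all 20 libraries and give no age or drug for any group. They do not state whether separate animals stand behind the 5 samples of each group. All p-values therefore describe the spread among these samples, which may be technical. The 4 libraries were F-C57 replicate 4, F-KO replicates 4 and 5 and M-KO replicate 2, which is 1 of 5 F-C57, 2 of 5 F-KO, 0 of 5 M-C57 and 1 of 5 M-KO libraries.

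The choroid plexus is a fold of vascular tissue covered by a secretory epithelium. It hangs in the brain ventricles, borders the hippocampus along the choroidal fissure, and makes cerebrospinal fluid. Its epithelial cells secrete transthyretin, the carrier of thyroid hormone and of the retinol-binding protein, and they move ions and water from blood to fluid through polarised pumps, exchangers and channels. They are joined by claudin tight junctions, lie on a stroma of fibroblasts and fenestrated vessels, and neighbour the ciliated ependymal cells of the ventricle wall.

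Ttr was listed at 583 FPKM in M-KO replicate 2, 878 in F-C57 replicate 4, 1097 in F-KO replicate 4 and 1461 in F-KO replicate 5, a mean of 1005 ± 370 (SD, n = 4). In the other libraries it ran from 8.37 to 169 with a median of 37.7 and a mean of 44.8 ± 38.0 (SD, n = 16), 22.4 times lower by the means. The library just inside the threshold was M-KO replicate 2, and the one just outside it was M-C57 replicate 1 at 169 FPKM, followed by M-C57 replicate 3 at 79.4 and F-C57 replicate 2 at 62.9. Ttr was thus detected in every library, and the libraries outside the threshold differed among themselves too. These values chose the libraries, so they are given without a test. Fmr1, the gene that encodes the RNA-binding protein FMRP, followed the labels: it ran from 2.90 to 3.72 FPKM in the 10 KO libraries and from 9.85 to 11.8 FPKM in the 10 C57 libraries, without overlap.

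**Figure D1:**
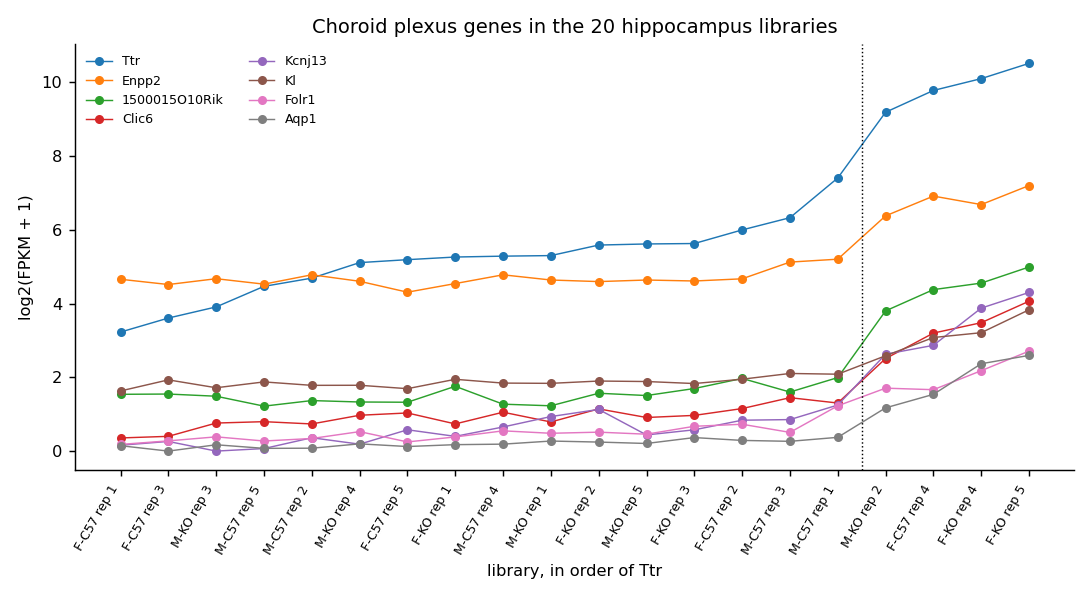
Level of 8 genes in each of the 20 libraries, as log2(FPKM + 1), with libraries placed in order of their Ttr level and the dotted line at the threshold of 500 FPKM; each point is 1 library and lines join the points of 1 gene. The 4 libraries on the right are above the other 16 for all 8 genes. For Ttr the threshold fixed this, and for Aqp1 the filter on low values (0.5 FPKM in at least 4 libraries) did. Folr1 met that filter only with the help of the 4 libraries. The other 16 differ in Ttr from 8.37 to 169 FPKM.

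All other genes were fitted with limma on log2(FPKM + 1), with the split by Ttr as a term beside the 4 title groups, and the threshold was an adjusted p of 0.05 (Benjamini-Hochberg over all genes tested). Because the libraries were chosen by a measured value, the fit describes which genes moved with Ttr over these libraries and tests no treatment. Of 13206 genes tested, 102 were higher in the 4 libraries (0.772%) and 2 were lower (0.0151%), in all 104 of them (0.788%), and 1077 had an unadjusted p under 0.05 (8.16%). Without F-C57 replicate 4 the number of higher genes was 65, and without F-KO replicate 5 it was 66. In 71 genes (0.538%) all 4 libraries lay above all 16 others. The median difference over all genes was 0.00 on the log2 scale. In bulk tissue, more cells of a type and more RNA per cell cannot be told apart.

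Known choroid plexus genes made up 23 of the 24 genes that passed with a log2 difference above 1, and 12 of those 24 met the filter on low values only with the help of the 4 libraries. The choroid plexus lists were chosen with earlier results of these data known, so counts on them are descriptions and not independent support. Of 65 tested genes on 4 such lists, 46 were higher and 0 were lower, the median difference was 0.71, and 64 of 65 differences were above 0. Over all genes, 6872 of 13206 differences were above 0. In 40 of the 65, all 4 libraries lay above all 16 others. The filter (0.5 FPKM in at least 4 libraries) was met by 17 of the 46 genes only with the help of the 4 libraries, which favours a difference. In 8 of these 17 none of the other 16 libraries reached 0.5 FPKM (Steap1, Aqp1, Slc4a5, Wfdc2, Mfrp, Wfikkn2, Calml4 and Trpv4), so they had to differ. In 9, 1 to 3 of the others did (Kcne2, F5, Folr1, Cldn2, Otx2, Col8a1, Col8a2, Sema3b and Krt8). Among all 102 higher genes, 20 met the filter only with this help, these 17 and Defb11 outside the lists among them. The differences and p-values of these 20 genes are descriptions only. Of the 29 genes that met the filter without the 4 libraries, 23 had all 4 above all 16 others. With the filter set on the 16 other libraries, 77 genes were higher of all tested (0.586%), and on the lists 29 of 48 were, with a median of 0.52. On the lists 22 genes were higher with a filter of 2 FPKM (median 0.51) and 22 with F titles only (median 0.61). Of 82 listed symbols, 68 were matched, among them Ttr, and Prlr and Tmem72 fell below the filter.

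The first list holds secreted proteins. Enpp2, which encodes autotaxin, an enzyme that makes lysophosphatidic acid, was at 82.2 FPKM in M-KO replicate 2, 120 in F-C57 replicate 4, 102 in F-KO replicate 4 and 146 in F-KO replicate 5. The other 16 libraries ran from 18.8 to 35.9 FPKM with a median of 23.9. The groups did not overlap, and the log2 difference was 2.19 ± 0.12 (SE; limma, adjusted p = 5.92e-09).

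1500015O10Rik, which encodes the secreted peptide precursor augurin (also called Ecrg4), showed the largest difference of all genes tested, 2.81 ± 0.14 (SE; limma, adjusted p = 2.14e-09). It was at 12.9 FPKM in M-KO replicate 2, 19.8 in F-C57 replicate 4, 22.5 in F-KO replicate 4 and 30.8 in F-KO replicate 5, and at 1.33 to 2.98 in the other 16. These 4 values stood in the same order as those of Ttr. Sostdc1, an antagonist of BMP and Wnt ligands, was at 5.10 to 9.86 FPKM against 1.34 to 2.68 (log2 difference 1.60). F5, coagulation factor V, was at 1.43 to 4.73 FPKM against 0.118 to 0.565 (log2 difference 1.65).

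Among the 13 tested genes for secreted proteins, 9 were higher, with a median difference of 0.85. With the filter set on the libraries outside the Ttr threshold alone, 6 of 10 were higher, with a median of 0.78. Lbp, which binds bacterial lipopolysaccharide, differed by 0.95, and Igfbp2, a carrier of insulin-like growth factors, by 0.71. Igfbp2 overlapped between the groups: it was at 10.6 to 20.2 FPKM in the 4 libraries and reached 13.5 in 1 of the others. Igf2, the growth factor itself, also made by meningeal fibroblasts, did not pass (0.85 ± 0.22 SE, limma adjusted p = 0.108), with 4.68 to 14.7 FPKM against 2.14 to 7.55. Cp (ceruloplasmin), Bmp7 and Serping1 did not pass either.

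Ion and water transport is the main work of the epithelium. Kcnj13, an inward rectifier potassium channel, was at 5.18 FPKM in M-KO replicate 2, 6.30 in F-C57 replicate 4, 13.7 in F-KO replicate 4 and 18.7 in F-KO replicate 5. It was listed at 0 to 1.38 FPKM in the other 16, with a median of 0.424, and the log2 difference was 2.78 ± 0.24 (SE; limma, adjusted p = 8.78e-07). Kcne2, a potassium channel subunit, was at 3.20 to 9.63 FPKM against 0.0716 to 0.801 (log2 difference 2.51).

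Clic6, a chloride channel family member, was at 4.69, 8.19, 10.2 and 15.7 FPKM in the 4 libraries in the order of their Ttr, against 0.280 to 1.73 in the other 16 (log2 difference 2.39 ± 0.19 SE; limma, adjusted p = 5.18e-07). The water channel Aqp1 was at 1.25, 1.91, 4.16 and 5.04 FPKM in the same order, against 0 to 0.295 (log2 difference 1.63). Clic6 did not overlap between the groups, and for Aqp1 the filter itself fixed that. Slc4a5, a sodium bicarbonate cotransporter of the apical membrane, was at 0.944 to 3.34 FPKM against 0 to 0.358.

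Of 24 tested transport genes, 12 were higher, with a median difference of 0.34. With the filter on the 16 other libraries 8 of 20 were, with a median of 0.31. Slc12a2, the sodium, potassium and chloride cotransporter, was at 16.1 to 21.5 FPKM against up to 19.1 FPKM in the other 16, which overlapped (0.33), and Car12, a carbonic anhydrase, also differed by 0.33 but lost its call in 20 alternatives. Slc4a2, an anion exchanger, differed by 0.51, the copper importer Slc31a1 by 0.55, the glucose transporter Slc2a12 by 1.04, the sulfate transporter Slc13a4 by 0.97 and the cation channel Trpv4 by 0.77. Car14 (0.42, limma adjusted p = 0.0782), Trpm3 (0.35, limma adjusted p = 0.225) and Slc29a4 (0.30, limma adjusted p = 0.191) did not pass. The sodium pump subunit Atp1b1 had a difference of -0.02.

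Of 9 tested genes for receptors and membrane proteins 7 were higher, with a median of 1.19. With the filter on the 16 other libraries 3 of 5 were, with a median of 0.39. Folr1, the folate receptor that carries folate into cerebrospinal fluid, was at 2.26 FPKM in M-KO replicate 2, 2.17 in F-C57 replicate 4, 3.53 in F-KO replicate 4 and 5.55 in F-KO replicate 5, against 0.133 to 1.34 (log2 difference 1.55). The highest of the 16 others was M-C57 replicate 1, the library next below the Ttr threshold. Kl, which encodes klotho, the coreceptor of the hormone FGF23, was at 7.46, 8.26 and 13.2 FPKM in F-C57 replicate 4 and F-KO replicates 4 and 5 and lowest of the 4 in M-KO replicate 2, against 2.10 to 3.30 (log2 difference 1.29 ± 0.12 SE; limma, adjusted p = 3.47e-06). Steap1, a metalloreductase, differed by 1.63, Ace, the angiotensin-converting enzyme, by 1.19, Mfrp, a frizzled-related membrane protein, by 1.29, Sema3b by 0.65 and Vamp8 by 0.39.

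The serotonin receptor Htr2c, which neurons express too, was at 5.92 to 9.57 FPKM against 4.83 to 7.36 and did not pass (0.26, limma adjusted p = 0.163). The prolactin receptor Prlr, not tested, was at 0.974 FPKM in M-KO replicate 2, 1.46 in F-C57 replicate 4, 0.495 in F-KO replicate 4 and 2.79 in F-KO replicate 5, against 0.0440 to 0.489. Tmem72, also below the filter, was at 0.398 to 1.45 FPKM against 0 to 0.151.

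Epithelial structure genes, transcription factors and others were higher in 18 of 19 cases, with a median difference of 0.77. With the filter on the 16 other libraries 12 of 13 were, with a median of 0.61. Only Ezr, the membrane linker ezrin, did not pass (0.19, limma adjusted p = 0.0729). The claudins Cldn2 and Cldn1, tight junction proteins, differed by 1.41 and 0.76, and the epithelial keratins Krt18 and Krt8 by 1.29 and 0.63. Col8a1, Col8a2 and Col9a3, collagen chains, differed by 1.20, 0.84 and 1.03. The homeobox gene Msx1 differed by 0.56. Prr32 differed by 1.71 and Cox8b, a subunit of cytochrome oxidase, by 1.18 with a wide error (SE 0.26) and a call lost in 19 alternatives.

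Otx2, a homeobox transcription factor needed for choroid plexus formation, was at 1.11 FPKM in M-KO replicate 2, 2.20 in F-C57 replicate 4, 1.87 in F-KO replicate 4 and 1.84 in F-KO replicate 5, against 0.0661 to 0.545 in the other 16. Its log2 difference was 1.13 ± 0.10 (SE), and it met the filter only with the help of the 4 libraries, since 2 of the other 16 reached 0.5 FPKM. Otx2 lies on chromosome 14 from 48657677 to 48673819 (mm10, per the deposited tables). OTX proteins bind the letters TAATCC, so RefSeq promoter windows (GRCm38.p6, 300 bases, 250 before to 50 after the start) were searched for TAATCC on either strand, that is for TAATCC or GGATTA. Of 104 windows of the 102 higher genes, matched for 80 symbols, 10 held the letters (9.62%), against 732 of 13177 windows of tested genes (5.56%) and 2320 of all 32851 windows (7.06%). A match is a description of the letters and not a binding site. The windows of Otx2 and of 3 genes described above or below as higher are shown from 250 bases before the start to the start, 5′ to 3′ on the gene's strand, with the 6 letters in capitals.
Otx2, chr14:48665110-48665359, minus strand: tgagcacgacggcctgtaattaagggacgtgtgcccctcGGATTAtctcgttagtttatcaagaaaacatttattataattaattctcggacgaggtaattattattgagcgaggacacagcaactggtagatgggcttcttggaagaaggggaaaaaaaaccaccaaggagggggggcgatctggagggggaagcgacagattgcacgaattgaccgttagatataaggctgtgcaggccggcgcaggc
Mfrp, chr9:44101520-44101769, plus strand: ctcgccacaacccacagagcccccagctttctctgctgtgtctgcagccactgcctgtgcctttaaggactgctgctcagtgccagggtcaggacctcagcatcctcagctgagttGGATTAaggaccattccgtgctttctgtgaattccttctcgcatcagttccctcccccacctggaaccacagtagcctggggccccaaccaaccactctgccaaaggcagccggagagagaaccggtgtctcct
Ace, chr11:105967698-105967947, plus strand: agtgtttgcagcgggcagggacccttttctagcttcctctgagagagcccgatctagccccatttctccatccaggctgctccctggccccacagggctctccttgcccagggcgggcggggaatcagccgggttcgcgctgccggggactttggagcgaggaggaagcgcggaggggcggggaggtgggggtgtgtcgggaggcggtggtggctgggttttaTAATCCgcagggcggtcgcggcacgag
Vat1l, chr8:114205390-114205639, plus strand: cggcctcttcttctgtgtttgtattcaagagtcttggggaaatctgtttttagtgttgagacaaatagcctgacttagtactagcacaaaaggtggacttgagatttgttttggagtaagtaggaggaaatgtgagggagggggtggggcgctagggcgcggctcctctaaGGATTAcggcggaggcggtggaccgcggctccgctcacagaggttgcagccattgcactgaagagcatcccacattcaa
In Ace the letters lie 27 bases before the start, in Vat1l 79, in Mfrp 134 and in Otx2 211. The Otx2 window lies inside the gene's span given above, so its start is within the gene and not at its outer end. Only windows that held the letters are shown. Vat1l, on the choroid plexus lists, was at 5.57 to 9.89 FPKM in the 4 libraries against 3.49 to 5.12.

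**Figure D2:**
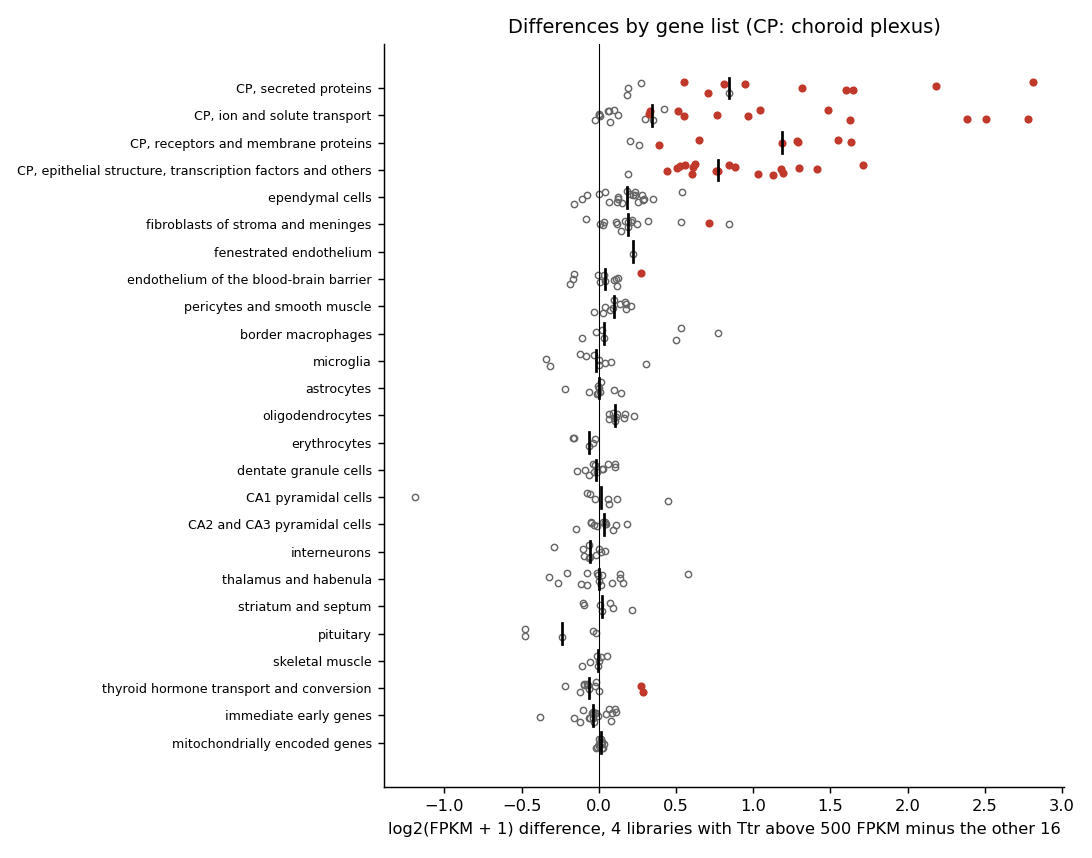
Difference of each listed gene between the 4 libraries with Ttr above 500 FPKM and the other 16, in log2(FPKM + 1); each point is 1 gene, filled points passed at an adjusted p under 0.05 (limma) and black bars are list medians. The 4 choroid plexus lists (CP) hold 46 filled points of 65, and the lists of neurons, astrocytes, microglia and oligodendrocytes hold 0. Among the 46, 17 met the filter on low values only with the help of the 4 libraries.

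Few markers of the tissues around the epithelium passed. Of 21 tested ependymal genes, 0 passed in limma, 18 of 21 differences were above 0 (against 6872 of 13206 over all genes), and the median was 0.18. Pltp, a phospholipid transfer protein, was at 22.8 to 32.0 FPKM against 16.2 to 25.8 (0.29, limma adjusted p = 0.0530), and the cilium gene Cfap126 was at 1.78 to 2.11 FPKM against 0.916 to 1.66 (0.35, limma adjusted p = 0.0603). The summed level of the ependymal genes was 78.1 to 83.3 FPKM in the 4 libraries and 52.3 to 82.8 FPKM in the others. Their part in the differences of the choroid plexus genes was not tested.

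Of 17 tested fibroblast genes 1 was higher, Pcolce, a collagen-processing enhancer (0.71), and the list median was 0.19. Differences were above 0 in 16 of the 17 (against 6872 of 13206 over all genes). In pericytes and smooth muscle 0 of 11 passed, and 10 of 11 differences were above 0 (median 0.10). Plvap, the diaphragm protein of fenestrated vessels and the only tested gene of its list, was at 2.59 to 3.85 FPKM against 1.67 to 3.20 and did not pass (0.22, limma adjusted p = 0.662). Of 12 genes of the blood-brain barrier endothelium 1 was higher, Slco1c1 (0.27), a thyroid hormone transporter that choroid plexus epithelium carries too. Among border macrophage genes 0 of 7 passed, with Cd74 at 2.03 to 4.94 FPKM against 0.652 to 4.11 (0.77, limma adjusted p = 0.253). H2-Aa (0.53, limma adjusted p = 0.150) and H2-Ab1 (0.50, limma adjusted p = 0.0992) did not pass either. The list median was 0.03, with 5 of 7 differences above 0. H2-Eb1, outside the list, was among the higher genes but lost its call in 27 alternatives.

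Lists of hippocampal and other brain cells held 0 genes past the threshold in either direction: dentate granule cells (median -0.02), CA1 (0.02) and CA2 and CA3 pyramidal cells (0.03), interneurons (-0.06), astrocytes (0.00), microglia (-0.02) and oligodendrocytes (0.11, with 10 of 10 differences above 0). The lists of erythrocytes, pericytes, thalamus and habenula, striatum and septum, pituitary, skeletal muscle, immediate early genes and mitochondrially encoded genes also had 0. Prl, the pituitary hormone prolactin, was above 4 FPKM in F-KO replicate 2 (4.63), F-KO replicate 3 (42.2) and F-KO replicate 4 (22.1), of which the last is also a Ttr library. Without these 3 libraries 67 genes were higher, 33 of them on the choroid plexus lists.

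Outside the choroid plexus lists 56 genes were higher, and their differences were smaller: 44 of 56 were under 0.5, against 4 of the 46 listed genes. Defb11, a beta-defensin, had the largest of them, 1.58, with 1.14, 2.72, 3.26 and 3.31 FPKM in the order of Ttr against 0 to 0.804. Drc7, a part of the ciliary dynein regulatory complex, was at 1.83 to 4.18 FPKM against 0.333 to 1.49 (0.91), and Pifo and Gmnc, genes of ciliated cells, differed by 0.59 and 0.30. Cgnl1, a protein of tight junctions, was at 2.77 to 4.96 FPKM against 1.31 to 2.42 (0.74). Gpx8 (0.69), a peroxidase of the endoplasmic reticulum, Elovl7 (0.67), which elongates fatty acids, and Tcn2 (0.48), the carrier of vitamin B12, were higher as well.

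Hfe, which regulates iron uptake, was at 1.74 to 2.04 FPKM against 0.949 to 1.38 (0.40), and Bmp6, a ligand that sets iron hormone levels in liver, at 1.90 to 3.21 against 1.01 to 2.19 (0.43). Bst2 (0.61) and Ifi27 (0.41), known as interferon-induced genes, were at 4.55 to 6.63 and 17.1 to 26.6 FPKM in the 4 libraries. Stk39, a kinase that activates the cotransporter Slc12a2, differed by 0.21, and the lysosomal membrane genes Cd63 and Lamp2 by 0.31 and 0.17. The 2 lower genes were Hif3a, of the hypoxia-inducible factor family, at 0.354 to 0.971 FPKM against 0.581 to 2.02 (-0.54, limma adjusted p = 0.0360), and A330070K13Rik at 0.456 to 0.620 against 0.665 to 1.39 (-0.40, limma adjusted p = 0.0150). Hif3a lost its call in 15 alternatives and A330070K13Rik in 7, and neither passed without F-C57 replicate 4, F-KO replicate 4 or F-KO replicate 5.

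The 10 genes whose levels followed Ttr most closely over the 20 libraries, after removing each title group's mean, were Otx2 (Pearson r = 0.966), Clic6 (0.958), Kcnj13 (0.954), Folr1 (0.947), 1500015O10Rik (0.939), F5 (0.939), Kcne2 (0.935), Enpp2 (0.931), Wfikkn2 (0.930) and Slc4a5 (0.923). These values describe 20 points of which 4 lie far from the rest, and the genes share those libraries. Otx2, Folr1, F5, Kcne2, Wfikkn2 and Slc4a5 met the filter on low values only with the help of those 4 libraries. Wfikkn2 and Slc4a5 reached 0.5 FPKM in none of the others. Such a filter favours a high correlation, so the values are descriptions only. In 48 of the 102 higher genes (47.1%) the 4 libraries stood in the same order as for Ttr, against 695 of all 13206 genes (5.26%). For the 46 choroid plexus genes it was 27 (58.7%). The higher genes were picked by these same 4 libraries, and a single ordering of them is counted over related genes. Of the 102, 20 met the filter on low values only with the help of the 4 libraries, and of the 46, 17 did. These shares are therefore descriptions only.

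**Figure D3:**
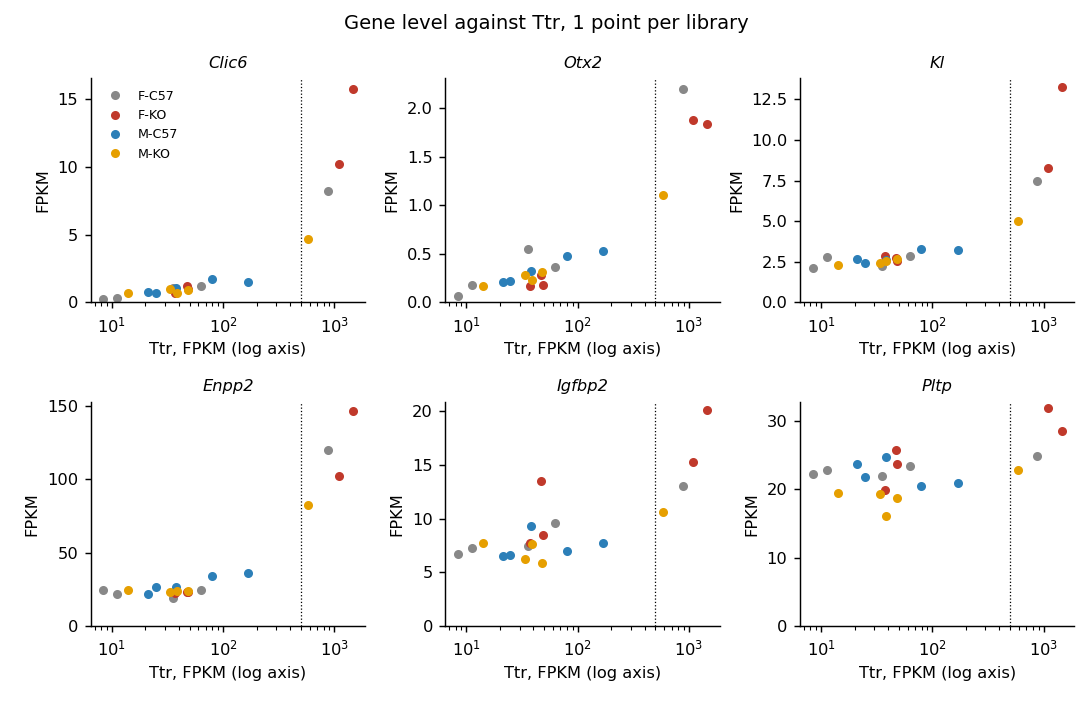
FPKM of 6 genes (vertical, linear axes from 0) against FPKM of Ttr (horizontal, log axis) in the 20 libraries, coloured by title group, with the dotted line at 500 FPKM. Clic6, Kl and Enpp2 were above all 16 others in all 4 libraries right of the line, while Igfbp2 and Pltp overlapped.

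The amount of each gene per amount of Ttr was compared among the 4 libraries as the excess over the median of the other libraries of the same title group, per 100 FPKM of Ttr excess. For 1500015O10Rik it was 1.93 to 2.09 FPKM, a ratio of 1.08 between the highest and the lowest library. Slc31a1 gave 0.286 to 0.340 and Kcne2 0.556 to 0.709 FPKM. Enpp2 gave 7.50 to 11.3 and Kl 0.456 to 0.743 FPKM. The ratio was wider for Steap1 (2.34) and Mfrp (2.72). With 1 or 2 libraries per title group, these ratios have no replicate error.

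**Figure D4:**
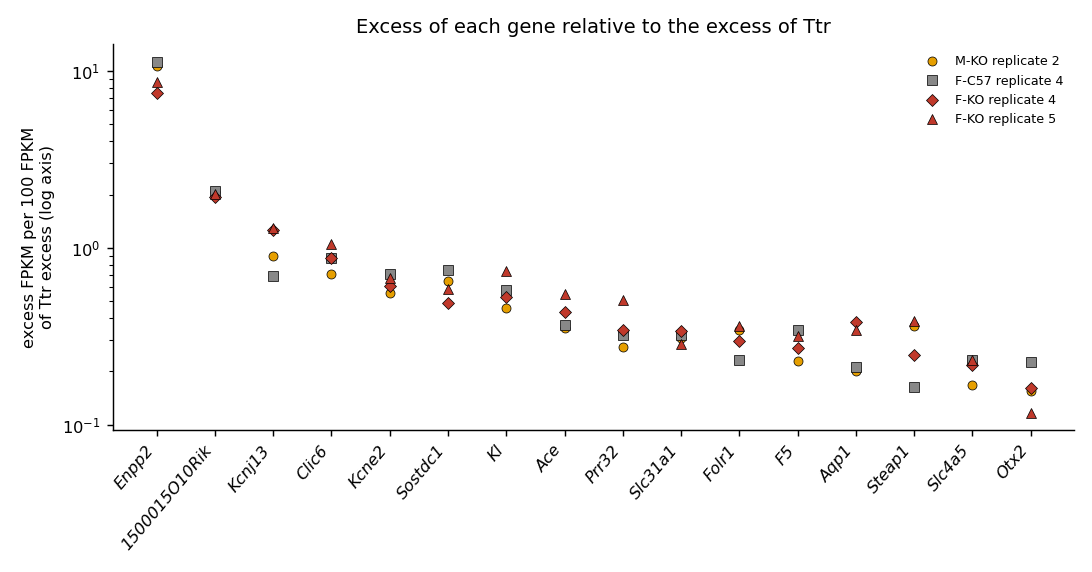
Excess FPKM of 16 higher genes over the median of the other libraries of their title group, per 100 FPKM of Ttr excess (log axis), with 1 symbol for each of the 4 libraries. The symbols of 1500015O10Rik lie within 1.93 to 2.09 and those of Kcnj13 spread from 0.697 to 1.29.

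Whether the same genes followed Ttr where it was low was asked in the 16 libraries the rule did not pick, with the slope on log2(Ttr FPKM + 1) beside the title groups. No gene passed in limma (0 of 13206), and 386 had an unadjusted p under 0.05 (2.92%), 230 of them with a positive slope (1.74%). Of the 46 choroid plexus genes higher in the 4 libraries, 38 had a positive slope (82.6%) and 15 had a positive slope with an unadjusted p under 0.05 (32.6%). Among these 46, 17 reached 0.5 FPKM in fewer than 4 of the 16 libraries, so their slopes rest on low values. F5, Aqp1, Kcne2, Slc4a5, Folr1, Krt8, Cldn2, Col8a1 and Otx2 were among both these 17 and the 15. The counts of slopes are therefore descriptions only. M-C57 replicate 1, at 169 FPKM, had the highest Ttr of the 16, and its weight in these counts was not tested. Over all genes 49.7% of slopes were positive. The slopes were 0.31 ± 0.06 (SE) for Kcnj13 (limma, adjusted p = 0.587), 0.24 ± 0.04 for Clic6 (limma, adjusted p = 0.427), 0.20 ± 0.04 for Folr1 (limma, adjusted p = 0.766) and 0.13 ± 0.02 for Otx2 (limma, adjusted p = 0.587), in log2 units per log2 unit of Ttr. Of the 56 genes outside the lists, 35 had a positive slope (62.5%), and 4 of them had an unadjusted p under 0.05 (7.14%).

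The 4 libraries are unevenly spread over the title groups, so the choroid plexus genes were also read in the comparison of F-KO with F-C57. The median difference of the 65 genes, F-KO minus F-C57, was 0.28 without the Ttr term and 0.15 with it, and 0 of them passed either way. Over all genes, 440 of 13206 passed in that comparison without the term (3.33%) and 459 with it (3.48%).

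The number of genes at 0.5 FPKM or more was 12881 ± 14.5 (SD, n = 4) in the 4 libraries and 12826 ± 31.6 (SD, n = 16) in the others (exact two-sided permutation test within title groups, p = 0.004, the smallest that 250 splits allow, adjusted p = 0.016 over 4 measures). This count includes the choroid plexus genes themselves. The mitochondrially encoded share of summed FPKM was 18.9% in both (exact permutation p = 0.868), and Fmr1 and the summed FPKM (230631 to 244976 per library) did not pass (exact permutation p = 0.332 and 0.232).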

How the data were processed

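Total RNA (1.3 µg per library) was extracted from hippocampus with TRIzol and prepared with a SMARTER mRNA-Seq kit, per the labels' protocols. The authors deposited 1 FPKM value per gene and library, as the file headers state. FastQC, HISAT2, StringTie and build mm10 are named without versions in the submitters' processing notes. The annotation, the strand setting and any filter were not given in the sources used here. FPKM are not counts, so depth is unknown and no counting interval was computed. Summed FPKM, which is not a depth, ran from 230631 to 244976 per library, and 18 to 28 of 13256 genes were listed at 0, which can be a failed estimate.

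Genes at 0.5 FPKM or more in at least 4 libraries were fitted as log2(FPKM + 1) by limma-trend (limma 3.58.1 in R 4.3.3), using a term for Ttr above 500 FPKM and the 4 title groups, over all 20 libraries. Ttr was left out of the fit and of all counts. A pseudocount of 1 understates differences of low genes. Adjusted p-values are Benjamini-Hochberg over all genes. Library measures were tested by exact permutation within title groups. The fits were tested on simulated data. Genes that overlap others can share reads: among those named, the antisense partners (Gigyf2 for Kcnj13, Anapc15 for Folr1, Otx2os1 for Otx2) and the same-strand neighbour of Mfrp (C1qtnf5), per GENCODE M21, cannot be told apart from them where strand was not used. The lists share Abcb1a, Igf2, Pvalb, Slco1a4 and Slco1c1. Named genes are Ttr and Fmr1, the 20 largest rises and up to 10 largest falls past the threshold with a mean of at least 1 FPKM, the listed genes with the smallest p, and the 10 genes most like Ttr. Drc7, Cgnl1, Gpx8, Elovl7, Tcn2, Hfe, Bmp6, Bst2, Ifi27, Stk39, Cd63, Lamp2, Pifo, Gmnc, A330070K13Rik and some listed genes were named after their values were seen. The members and the lists were chosen with earlier results of these data known. Alternatives were a pseudocount of 0.1, no filter or one of 2 FPKM, upper-quartile rescaling, robust empirical Bayes, weights per library, a block on the replicate number, no covariates, Ttr as a number, a threshold of 100 FPKM, F titles only, Prl as a covariate, removal of a GC trend (loess, span 0.5) and leaving out each library. Leaving out the 3 libraries with Prl above 4 FPKM and a filter on the 16 other libraries were added after seeing the data. Python 3.11.15 and pandas 2.3.3 were used. The results of some listed genes are left out of the text.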

Additional observations from a re-analysis of the deposited data

Results flagged for a closer look

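Among 102 groups of values checked for a library far from the others of its group, 5 stood apart, and chance gives about 1 in 20. Among M-C57 libraries, replicate 1, the library with the highest Ttr outside the threshold, was the highest for Folr1 at 1.34 FPKM (the next was at 0.463), for Slc4a5 at 0.358 FPKM (next 0.101) and for Steap1 at 0.313 FPKM (next 0.112). Defb11 was at 0.248 FPKM in F-C57 replicate 5 and listed at 0 in the other F-C57 libraries under the threshold. Fmr1 in M-KO replicate 3 was at 2.11 on the log2(FPKM + 1) scale, with the nearest of its group at 2.22.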

How the results depend on the processing

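Of the 102 higher and 2 lower genes, 43 of 104 passed in every alternative in which they were tested, and none of the 104 changed sign. The number of higher genes moved by over 1.5 times to 43 with a filter of 2 FPKM, to 65 with a Ttr threshold of 100 FPKM, to 36 with F titles only and to 67 without the 3 libraries with Prl above 4 FPKM (an alternative chosen after seeing the data). It ran from 65 (without F-C57 replicate 4) to 105 when 1 library was left out, and was 66 without F-KO replicate 5. The number of lower genes was 0 with a filter of 2 FPKM, 0 with F titles only, 4 with library weights, 1 with Ttr as a number, and 1 to 6 when 1 library was left out, of which 0 were the 2 genes named without F-C57 replicate 4, F-KO replicate 4 or F-KO replicate 5. The causes were not tested, except that the stricter filter and the F titles leave fewer genes or samples. The choroid plexus genes had a median between 0.49 (without F-KO replicate 5) and 0.76 when 1 library was left out, with 34 to 46 genes higher. With a filter of 2 FPKM the median was 0.51 and 22 were higher, with F titles only 22 were higher, and with a pseudocount of 0.1 the median was 1.23. The slope among the 16 libraries gave 1 higher gene with no covariates and 0 in the other alternatives, also when 1 library was left out. H2-Eb1 (0.66) was lost in 27 alternatives, Cd63 in 8, Lamp2, Pifo and Slco1c1 in 7 each, Bmp6 in 5, and Slc12a2, Vamp8 and Krt8 in 4 each.

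With the replicate number as a block, 73 genes were higher and 3 lower, and 70 of the 104 passed. Same-numbered libraries of different groups had correlations of -0.10 to 0.07 in their deviations from the group means (30 pairs, 0 over 0.1). In 1 of 20 libraries the best correlation was with its own number. The titles give the number alone, and whether same-numbered libraries share a batch was not tested.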
